A study of Mus musculus with 16 samples.

Results

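The 10 genes described here are the antioxidant genes of the NRF2 pathway that carry the names Nfe2l2, Keap1, Nqo1, Gclc, Gclm, Txnrd1, Srxn1, Slc7a11, Gpx4 and Cat, which were found by gene name among the 25719 genes of the deposited table. RNA of whole liver was sequenced from male mice that were WT or Klrk1-/-. Klrk1-/- mice lack the gene for the activating receptor NKG2D of NK cells and T cells in every cell of the body. The sample titles name C57BL6J for the WT mice only, and the titles of the Klrk1-/- mice name no strain. The mice were aged 8 to 12 weeks at the start of feeding and were fed a normal chow diet (NCD) or a steatosis-steatohepatitis diet (SSD) for 3 weeks. SSD drew 40% of its calories from animal fat and held 22% fructose and 2% cholesterol. There were 4 WT mice on NCD (numbered 1, 2, 3 and 5), 5 WT mice on SSD, 4 Klrk1-/- mice on NCD and 3 Klrk1-/- mice on SSD, with 1 library per mouse. The design asks what the diet does to each gene in either genotype, and whether mice without NKG2D differ on either diet.

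NRF2, the product of Nfe2l2, is a transcription factor that drives genes against oxidants and electrophiles. Its partner KEAP1 binds it in the cytoplasm and feeds it to the proteasome until electrophiles modify the cysteines of KEAP1, so that NRF2 is set mainly through protein stability and its mRNA need not follow its activity. In the nucleus NRF2 pairs with small MAF proteins on a short sequence called the antioxidant response element, and in the liver it is known for raising glutathione synthesis, thioredoxin reduction and detoxifying enzymes.

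Each mouse had from 19892025 to 28936707 reads assigned to genes. The values below are normalized counts, in which the authors divided the reads of each mouse by 1 factor. Klrk1 itself lay at 20.1 to 71.1 normalized counts in the WT mice and at 0.966 to 8.71 in the Klrk1-/- mice, so every Klrk1-/- library was below every WT library. WT SSD replicate 1 stood apart. Its median rank correlation with the other mice of its group was 0.975, against 0.989 to 0.990 for those mice, and its summed monocyte markers were 5343 normalized counts, against 1293 to 2159 in the other 4. Klrk1-/- NCD replicate 3 stood apart in several of the members, as given below. The comparisons share mice, as the WT mice on SSD enter both their diet comparison and the genotype comparison on SSD. All of these are bulk measurements of whole liver, in which fewer cells of a type and less RNA per cell cannot be told apart.

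**Figure D1:**
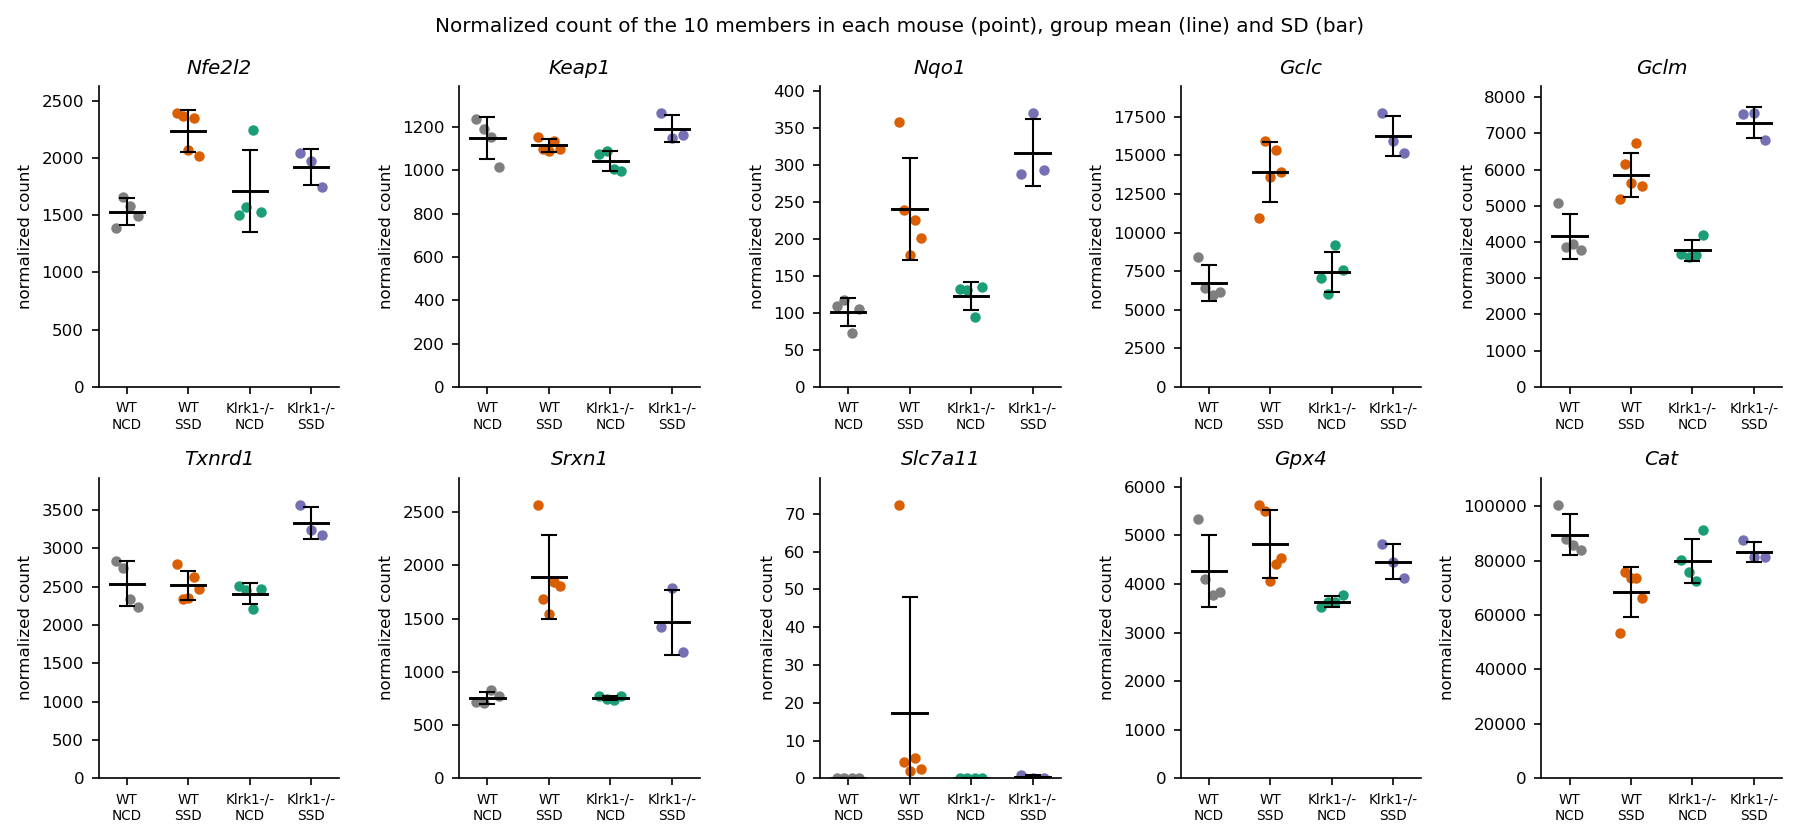
Normalized count (linear axis from 0) of each member in every mouse, with 1 point per mouse, a line at the group mean and a bar for the SD, for WT and Klrk1-/- mice on NCD and SSD. Nqo1, Gclc, Gclm and Srxn1 lay higher in every SSD-fed mouse than in every NCD-fed mouse of the same genotype, Txnrd1 did so only in Klrk1-/- mice, and Slc7a11 had a single high mouse at 72.4.

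Nfe2l2 (ENSMUSG00000015839, chr2:75505857-75534985 on the minus strand, GRCm39) encodes NRF2. WT mice had 1389, 1660, 1582 and 1489 normalized counts on NCD and 2389, 2364, 2066, 2351 and 2013 on SSD. No SSD-fed WT mouse came down to the NCD range, and Nfe2l2 rose by 0.55 on the log2 scale (SE 0.09, adjusted p = 0.000706, limma's trend method with adjustment over all genes tested). The Klrk1-/- values were 1500, 1569, 2242 and 1524 on NCD and 2046, 1971 and 1747 on SSD. These groups overlapped because of replicate 3 on NCD, and the difference of 0.19 (SE 0.13) did not pass (adjusted p = 0.314). Without that mouse the difference was 0.32 and passed in limma (adjusted p = 0.0143). With every mouse scaled to the same total the difference was 0.44 with all mice, beside a shift of 0.253 in the median of all genes. That scaling shifts nearly all genes alike, so a value relative to that median (0.19 here) returns the main value by construction.

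Keap1 (ENSMUSG00000003308, chr9:21141026-21150657, minus strand) encodes the adaptor that holds NRF2 down. Its group means ran only from 1042 ± 46.6 (SD, n = 4) in Klrk1-/- mice on NCD to 1192 ± 62.1 (n = 3) in Klrk1-/- mice on SSD, with 1149 ± 96.5 (n = 4) and 1115 ± 29.3 (n = 5) in WT mice on NCD and SSD. The diets overlapped in WT mice and differed by -0.04 (SE 0.08, limma adjusted p = 0.728), a value that was 0.31 (limma adjusted p = 0.011) with every mouse scaled to the same total, where the median of all genes moved by 0.342. Every SSD value of the Klrk1-/- mice (1263, 1150 and 1162) was above every NCD value (1076, 1088, 1006 and 998), yet the difference of 0.19 (SE 0.08) missed the threshold (limma adjusted p = 0.0858). With every mouse scaled to the same total it was 0.45 (limma adjusted p = 0.00254), or 0.20 relative to the median of all genes.

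Glutathione synthesis begins with glutamate-cysteine ligase, whose catalytic subunit is encoded by Gclc (ENSMUSG00000032350, chr9:77661817-77701767, plus strand) and whose modifier subunit is encoded by Gclm (ENSMUSG00000028124, chr3:122039206-122064381, plus strand). Gclc stood at 8438, 6381, 5949 and 6148 normalized counts in WT mice on NCD and at 10929, 15905, 13604, 15350 and 13908 on SSD. Klrk1-/- mice had 7037, 6004, 9172 and 7554 on NCD and 17729, 15921 and 15168 on SSD. The lowest SSD-fed mouse of either genotype was above the highest NCD-fed mouse. Gclc rose 2.08-fold in WT mice (log2 fold change 1.05, SE 0.13, adjusted p = 0.000141) and 2.21-fold in Klrk1-/- mice (1.14, SE 0.13, adjusted p = 5.80e-05), both by limma.

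Gclm was at 5092, 3862, 3939 and 3772 normalized counts in WT mice on NCD and at 5196, 6162, 5629, 6734 and 5550 on SSD. The groups did not overlap, although WT SSD replicate 1 lay just above WT NCD replicate 1. Klrk1-/- mice had Gclm at 3669, 3592, 3638 and 4201 on NCD and at 7538, 7556 and 6807 on SSD, with a wide gap between the diets. The rise was 1.41-fold in WT mice (log2 fold change 0.50, SE 0.11, limma adjusted p = 0.00531) and 1.94-fold in Klrk1-/- mice (0.95, SE 0.08, limma adjusted p = 1.01e-05). The difference between these 2 rises, taken as the diet by genotype interaction, was 0.46 (SE 0.15) and did not pass (limma adjusted p = 0.135).

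Slc7a11 (ENSMUSG00000027737, chr3:49846975-50398063, minus strand) encodes the cystine transporter subunit xCT, which brings in the cysteine for glutathione. No read of it was counted in the 4 WT or the 4 Klrk1-/- mice on NCD. On SSD the 5 WT mice had 109, 5, 2, 6 and 3 reads (72.4, 4.22, 1.9, 5.33 and 2.45 normalized counts), and the Klrk1-/- mice had 1, 0 and 0 reads. A single mouse, WT SSD replicate 1, thus held nearly all of the signal. Pooled over mice, the 125 reads on SSD were, as a share of all reads, at least 30.5-fold higher than a floor of 3 reads over the WT NCD group. The 16 reads of the 4 SSD-fed WT mice without replicate 1 were at least 5.07-fold higher than that floor. The pooled ratio of WT to Klrk1-/- mice on SSD rests on 1 read in Klrk1-/- mice, below that floor, so no exact ratio is given. The lower ends of its 95% counting intervals were 13.6 with all mice and 1.99 without WT SSD replicate 1. These limits cover counting error only. Slc7a11 reached the minimum mean of 10 normalized counts only for Klrk1-/- against WT on SSD, through that mouse, where limma gave an adjusted p of 0.173. The same mouse also had the highest summed markers of macrophages (13966, against 6621 to 11819 in the other 4) and of stellate cells (16155, against 4875 to 8166), and the part of these cells in its Slc7a11 value was not tested.

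The thioredoxin arm was represented by Srxn1 (ENSMUSG00000032802, chr2:151947436-151953296, plus strand), for sulfiredoxin, which repairs over-oxidized peroxiredoxins, and by Txnrd1 (ENSMUSG00000020250, chr10:82669785-82733546, plus strand), for the selenoenzyme that reduces cytosolic thioredoxin. Srxn1 lay at 721, 705, 826 and 771 normalized counts in WT mice on NCD and at 2569, 1689, 1548, 1846 and 1807 on SSD. The Klrk1-/- mice lay at 771, 745, 737 and 772 on NCD and at 1425, 1792 and 1185 on SSD. The diets were far apart in both genotypes, and the WT rise of 1.30 on the log2 scale (SE 0.13, limma adjusted p = 2.35e-05) was the highest of the 9 members tested there. The rise of Srxn1 in Klrk1-/- mice was 0.93 (SE 0.12, limma adjusted p = 0.000167).

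Txnrd1 behaved differently from Srxn1 in WT mice. It was at 2833, 2737, 2342 and 2233 normalized counts on NCD and at 2789, 2340, 2352, 2627 and 2466 on SSD, 2 overlapping groups that differed by -0.01 (SE 0.10, limma adjusted p = 0.953), or by 0.34 (limma adjusted p = 0.0171) with every mouse scaled to the same total, again beside the shift of 0.342 in the median of all genes. Klrk1-/- mice had 2502, 2455, 2209 and 2465 on NCD and 3565, 3231 and 3178 on SSD. Every SSD-fed Klrk1-/- mouse was above every other mouse of the study, and Txnrd1 rose 1.38-fold with the diet in this genotype (log2 fold change 0.47, SE 0.08, limma adjusted p = 0.00133).

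Nqo1 (ENSMUSG00000003849, chr8:108114857-108129838, minus strand), for the quinone reductase that is widely used to read NRF2 activity, was per length the least abundant of the members apart from Slc7a11. WT mice had 110, 117, 73 and 105 normalized counts on NCD and 358, 239, 179, 226 and 202 on SSD. Klrk1-/- mice had 132, 131, 94.5 and 135 on NCD and 288, 370 and 293 on SSD. Neither genotype showed overlap between the diets. Nqo1 rose 2.34-fold in WT mice (log2 fold change 1.22, SE 0.20, adjusted p = 8e-04) and 2.57-fold in Klrk1-/- mice (1.36, SE 0.15, adjusted p = 5.83e-05), both by limma. Without WT SSD replicate 1, the highest of its group, the WT rise was 1.07 (limma adjusted p = 0.000342).

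Gpx4 (ENSMUSG00000075706, chr10:79883000-79892273, plus strand) encodes the selenoenzyme that reduces lipid hydroperoxides with glutathione. WT mice had 5345, 4106, 3770 and 3843 normalized counts on NCD and 5630, 5497, 4054, 4415 and 4529 on SSD, 2 overlapping groups (difference 0.18, SE 0.13, limma adjusted p = 0.303). The WT difference passed with quantile normalization and with every mouse scaled to the same total (0.53, limma adjusted p = 0.00608). Relative to the median of all genes the latter was 0.18, which repeats the main value by construction. Klrk1-/- mice had 3522, 3628, 3630 and 3776 on NCD and 4822, 4451 and 4116 on SSD, and Gpx4 rose by 0.29 in them (SE 0.08, limma adjusted p = 0.0165). This call was lost without Klrk1-/- SSD replicate 1, the highest of its group, and with all 4 groups in 1 model, where limma's adjusted p reached 0.101 at most.

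Cat (ENSMUSG00000027187, chr2:103284194-103315505, minus strand) encodes catalase, the peroxisomal enzyme that breaks down hydrogen peroxide. WT mice had 100500, 88106, 85601 and 83991 normalized counts on NCD and 53456, 75703, 73776, 73440 and 66343 on SSD, so all 5 SSD-fed mice were below all 4 NCD-fed mice. The difference of -0.39 (SE 0.15) just missed the threshold in limma (adjusted p = 0.0549), and it passed in 6 of 21 alternatives, edgeR and DESeq2 on the recovered reads among them, with adjusted p-values from 0.00469 to 0.968. When every mouse was scaled to the same total it was -0.05 (limma adjusted p = 0.743). That scaling moved the median of all genes by 0.342, and relative to that median Cat differed by -0.39, which repeats the main value by construction. Cat of Klrk1-/- mice lay at 80133, 75898, 72442 and 91262 on NCD and at 87493, 81190 and 81168 on SSD, with overlap and a difference of 0.06 (SE 0.11, limma adjusted p = 0.713). Scaled to the same total this difference was 0.32 (limma adjusted p = 0.0288), or 0.07 relative to the median of all genes. Markers of hepatocytes, which hold most of the catalase of the liver, moved as well. Their sum was 2205186 to 2511485 in WT mice on NCD and 1424217 to 1823773 on SSD, with 3 of the 6 markers tested lower, against 17.6% of all genes, none higher and none at 0 reads. The sum in Klrk1-/- mice was 2123838 to 2852348 on NCD and 1929978 to 2092621 on SSD, with 4 of the 6 lower, against 16% of all genes. The normalized totals were lower on SSD as well, with medians of 25995266 on NCD and 20913201 on SSD in WT mice and of 26741399 and 22511101 in Klrk1-/- mice, so these sums are not shares of the total. Alb had a mean of 1560000 normalized counts over all mice, so these sums mostly follow that gene. The part of hepatocytes in the Cat values was not tested.

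Levels of different genes can be compared only per length. Per kilobase of gene model, WT mice on NCD held 52800 ± 4419 (SD, n = 4) normalized counts of Cat, 6301 ± 1084 of Gpx4, 4281 ± 733 of Gclc, 2885 ± 430 of Gclm, 1116 ± 129 of Txnrd1, 780 ± 59.8 of Nfe2l2, 624 ± 45.3 of Srxn1, 462 ± 38.8 of Keap1 and 65.1 ± 12.5 of Nqo1. On SSD the WT means were 40415 ± 5397 (n = 5) for Cat, 8867 ± 1233 for Gclc and 7127 ± 1031 for Gpx4. By these means Gclc stood above Gpx4, by less than the sum of their SDs. Within WT SSD replicate 1 Gclc stood below Gpx4 per kilobase. Srxn1 reached 1562 ± 327 per kilobase and stood above Nfe2l2 (1140 ± 92.5) and Txnrd1 (1106 ± 84.5), which differed by less than either SD.

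To show which members carry the letters that NRF2 and small MAF proteins are known to bind, the 1000 bases before the start of each member's canonical transcript (GENCODE vM39 on GRCm39) were searched on both strands for TGACNNNGC and for TGAGNNNGC, where N is any base. The motifs differ in 1 letter, so the same 9 bases read in one direction cannot match both. TGACNNNGC was found before 5 of the 10 members (Nfe2l2, Gclm, Txnrd1, Slc7a11 and Gpx4), against 28.2% of 21770 protein-coding genes. TGAGNNNGC, which was searched after the first, was found before 4 members (Nqo1, Srxn1, Slc7a11 and Gpx4), against 39.6% of these genes. Either motif was found before 7 members, against 56.2% of all, and neither was found before Keap1, Gclc and Cat. TGACNNNGC was also searched in RefSeq promoter windows (GRCm38.p6) from 250 bases before to 50 after the start. There 4 of the 9 members found had it in at least 1 window, against 12.4% of 32851 windows. These were Nfe2l2, Gclm, Txnrd1 and Srxn1, so the members with this motif depend on the window. The site nearest to the start is printed for Nqo1, Srxn1, Gclm and Txnrd1, targets that were called between the diets, and for the regulator Nfe2l2. Gpx4 was called between the diets in Klrk1-/- mice as well, and its sites, 890 and 767 bases before the start, are not printed. The sequences are read on the strand of the gene, minus for Nqo1 and Nfe2l2 and plus for the others, 5′ to 3′, with the 9 letters of the motif, or of its reverse complement, in capitals.
Nqo1, chr8:108130255-108130283, 339 bases before the start: agagtcacagTGAGTCGGCaaaatttgag
Srxn1, chr2:151947389-151947417, 45 bases before the start: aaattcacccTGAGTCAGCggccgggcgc
Gclm, chr3:122039062-122039090, 54 bases before the start: gctcccgggcGCACCGTCAactctcacga
Txnrd1, chr10:82694938-82694966, 65 bases before the start: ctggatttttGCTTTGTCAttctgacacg
Nfe2l2, chr2:75535229-75535257, 262 bases before the start: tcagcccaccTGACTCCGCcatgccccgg
A match is a description of the sequence and not a measured binding site, and the shares of all genes show how common such letters are.

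Read over the members, SSD against NCD in WT mice gave 5 of the 9 members tested as higher at an adjusted p under 0.05 and none as lower, where 17.3% of all 13091 genes tested were higher and 17.6% were lower. These were Nfe2l2, Nqo1, Gclc, Gclm and Srxn1. The groups did not overlap for 6 of the 9, the same genes and Cat, against 29.0% of all genes. At an unadjusted p under 0.05, which 5942 of all genes tested had, Cat was lower as well. The diet in Klrk1-/- mice gave 6 of the 9 members as higher and none as lower, and so did edgeR and DESeq2, against 13.4% and 16% of 12904 genes by limma. At an unadjusted p under 0.05 there were 7, all higher, with Keap1 as the additional one, among 5336 of all genes tested. These were Nqo1, Gclc, Gclm, Txnrd1, Srxn1 and Gpx4, and with Keap1 they made 7 members without overlap, against 37.6% of all genes. Slc7a11 was below the minimum mean in both comparisons. With every mouse scaled to the same total, 8 members were higher in WT and 9 in Klrk1-/- mice, but so were 48.2% and 37.4% of all genes, with 5.5% and 6.25% lower. The median log2 fold change of the 9 members was 0.50 in WT mice and 0.47 in Klrk1-/- mice, with a median of all genes of 0.00 in both. Thus 4 members, Nqo1, Gclc, Gclm and Srxn1, rose in both genotypes. By exact two-sided permutation of single members, without adjustment, 7 of the 10 reached the smallest possible p of 0.0159 in WT mice, Slc7a11 and Cat among them. For Slc7a11 this rests on as few as 2 reads in an SSD-fed mouse, below the floor of 3, and is not read further. For Klrk1-/- mice 7 reached the smallest possible p of 0.0571, so that this design cannot pass 0.05.

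**Figure D2:**
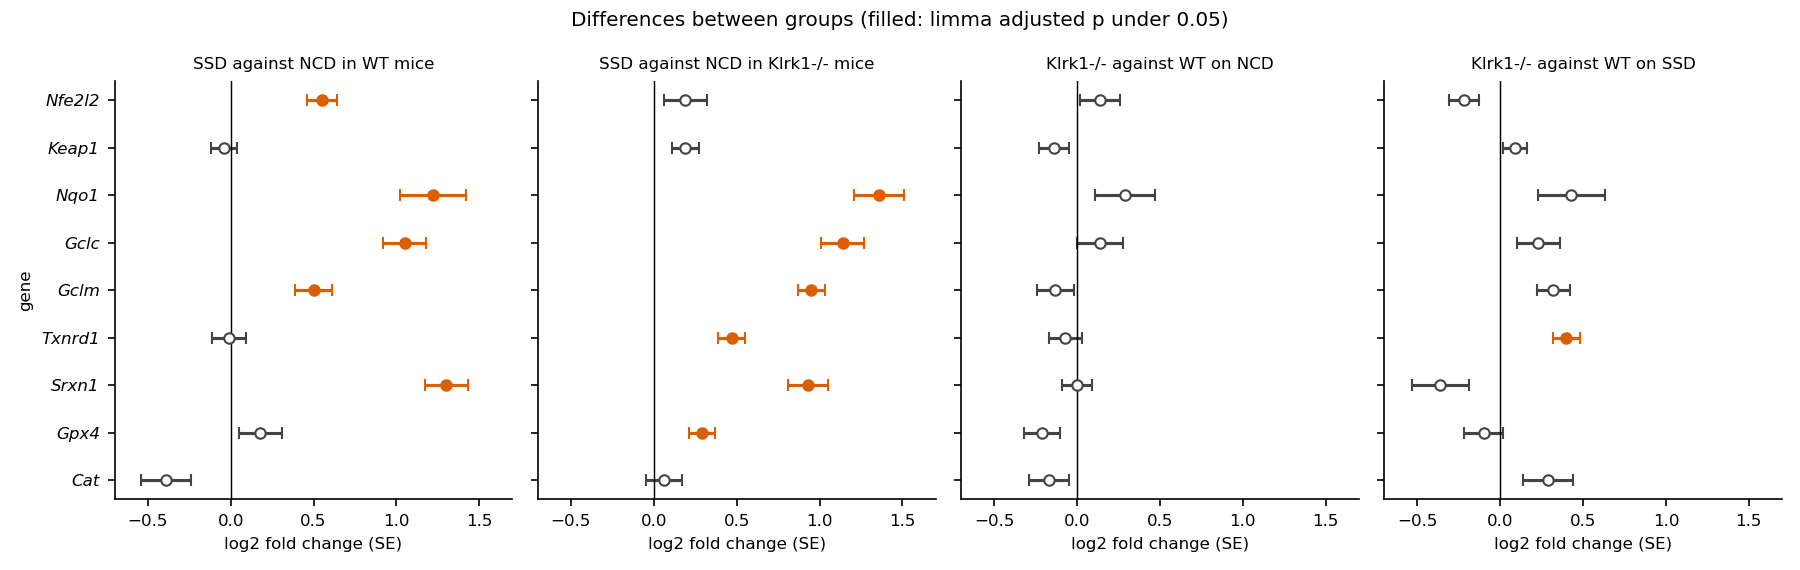
Log2 fold change (horizontal axis, bars for the SE) of the 9 members other than Slc7a11 in the 4 comparisons of groups, with filled points for a limma adjusted p under 0.05. Filled points number 5 for the diet in WT mice, 6 for the diet in Klrk1-/- mice, 0 for the genotype on NCD and 1, Txnrd1, for the genotype on SSD.

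On NCD the genotypes did not differ in any member by the test. Of 9 members tested, 0 were higher and 0 were lower in Klrk1-/- mice, against 6.41% and 6.66% of 12845 genes by limma, and none was under an unadjusted p of 0.05. edgeR and DESeq2 also called 0. The lowest p by exact two-sided permutation was 0.0571, where 0.0286 was possible. No member had groups without overlap, against 19.3% of all genes. The largest differences were 0.29 for Nqo1 (SE 0.18, limma adjusted p = 0.28) and -0.21 for Gpx4 (SE 0.11, limma adjusted p = 0.193). Srxn1 was at 756 ± 54.9 normalized counts (SD, n = 4) in WT mice and 757 ± 17.8 (n = 4) in Klrk1-/- mice.

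On SSD Txnrd1 was the only member that passed in limma after adjustment. It rose 1.32-fold in Klrk1-/- mice relative to WT mice (log2 fold change 0.40, SE 0.08, limma adjusted p = 0.0376), with means of 3325 ± 210 (SD, n = 3) and 2515 ± 192 (n = 5). This is 1 of 10 members tested as higher and 0 as lower, against 1.22% and 1.68% of 13116 genes. At an unadjusted p under 0.05 there were 2999 of the 13116 genes, among them Txnrd1 and Gclm as higher and Nfe2l2 as lower, besides Slc7a11 (-2.59), which was tested only through WT SSD replicate 1. The call held in 10 of 20 alternatives, with adjusted p-values between 0.000482 and 0.178, and it was lost when any 1 of the 3 Klrk1-/- mice was left out. The groups did not overlap for Txnrd1, Gclm and Cat, against 17.9% of all genes. Nor did they for Slc7a11, which is not read against that share for the same reason. By exact two-sided permutation, without adjustment, Txnrd1, Gclm and Cat reached the smallest possible p of 0.0357. Slc7a11 reached it too and is again set aside. Gclm stood at 7300 ± 427 in Klrk1-/- mice and 5854 ± 601 in WT mice (difference 0.32, SE 0.10, limma adjusted p = 0.0991). Cat stood at 83284 ± 3646 and 68544 ± 9153 (difference 0.29, SE 0.15, limma adjusted p = 0.287). Nqo1 differed by 0.43 (SE 0.20, limma adjusted p = 0.235), and by 0.58 without WT SSD replicate 1, where it passed (limma adjusted p = 0.0309). Nfe2l2 and Srxn1 had values of the other sign, -0.22 (SE 0.09, limma adjusted p = 0.193) and -0.36 (SE 0.17, limma adjusted p = 0.234). Beside these values, the summed macrophage markers were 4873 to 6252 in Klrk1-/- mice and 6621 to 13966 in WT mice on SSD, with 2 of 8 markers lower and none at 0 reads, and their part in the members' values was not tested.

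The test of whether the diet acts differently in the genotypes is the interaction over all 16 mice, in which a positive value means a larger difference between SSD and NCD in Klrk1-/- mice. No member passed in limma, 0 of 9 in either direction, against 0.321% of 13068 genes in the positive and 0.559% in the negative direction. At an unadjusted p under 0.05 there were 5 members, Txnrd1, Gclm, Cat, Keap1 and Nfe2l2, and 2256 of the 13068 genes. edgeR called 0 members and DESeq2 called 1, where DESeq2 called 186 genes in the positive and 274 in the negative direction and limma 42 and 73. The largest value was that of Txnrd1 (0.47, SE 0.13, limma adjusted p = 0.084, DESeq2 adjusted p = 0.0188). Cat (0.46, SE 0.19, limma adjusted p = 0.224) and Keap1 (0.23, SE 0.10, limma adjusted p = 0.264) had the same sign, and Nfe2l2 had the other (-0.36, SE 0.16, limma adjusted p = 0.272). For Gclc the interaction was 0.09 (SE 0.20, limma adjusted p = 0.842) and for Nqo1 it was 0.14 (SE 0.28, limma adjusted p = 0.822). That Nfe2l2 passed only in WT mice, and Txnrd1 and Gpx4 only in Klrk1-/- mice, is therefore not shown to be a difference between the genotypes.

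**Figure D3:**
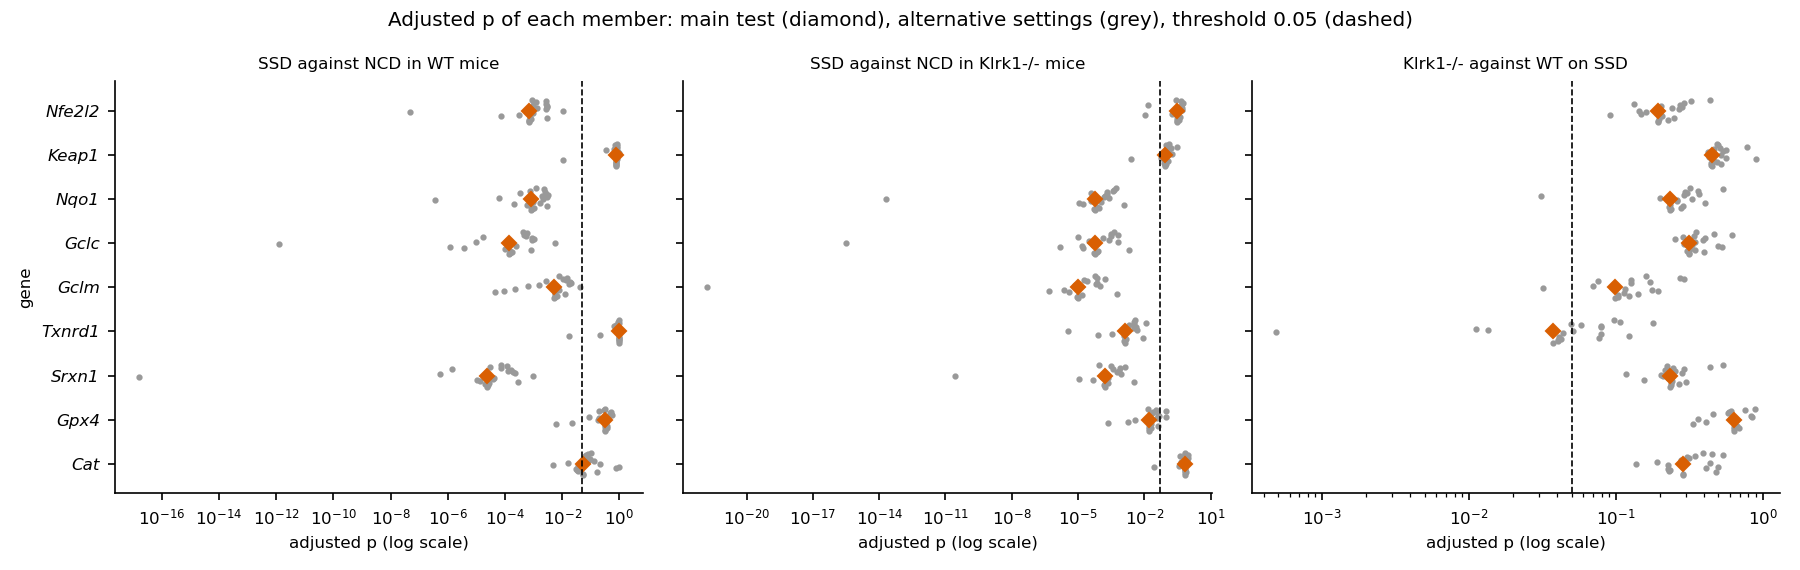
Adjusted p (log axis, with its own range in each panel) of the 9 members other than Slc7a11, for the diet in WT mice, the diet in Klrk1-/- mice and the genotype on SSD, with a diamond for the main limma test, a grey point for each alternative setting and a dashed line at 0.05. All grey points of Nqo1, Gclc, Gclm and Srxn1 lie left of the line in both diet panels, and those of Txnrd1 lie on both sides of it for the genotype on SSD.

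Other target genes of NRF2 were read from a list of 37, all of which were tested. In WT mice 23 of the 37 rose on SSD and 4 fell, and in Klrk1-/- mice 24 rose and 4 fell, with 19 that rose in both. Of all genes 17.3% rose and 17.6% fell in WT and 13.4% rose and 16% fell in Klrk1-/- mice. Their median log2 fold changes were 0.49 and 0.66. With every mouse scaled to the same total the counts were 30 and 1 in WT and 29 and 2 in Klrk1-/- mice, against 48.2% and 5.5% and against 37.4% and 6.25% of all genes. Without WT SSD replicate 1 the WT counts were 22 and 4, and without Klrk1-/- NCD replicate 3 the Klrk1-/- counts were 25 and 4. Gsta1, for a glutathione transferase, rose from 32.2 ± 8.17 normalized counts (SD, n = 4) to 455 ± 114 (n = 5) in WT mice (log2 fold change 3.77, SE 0.21, limma adjusted p = 1.65e-07) and by 2.42 (SE 0.27, limma adjusted p = 5.13e-05) in Klrk1-/- mice. Glutathione transferases have near-identical copies whose reads can be split between genes, so single values of this family are uncertain. Abcc4, for an export pump of the basolateral membrane, rose by 2.39 in WT mice (SE 0.33, limma adjusted p = 0.00023), and Cbr3, for a carbonyl reductase, rose by 2.41 in Klrk1-/- mice (SE 0.38, limma adjusted p = 0.000758). Both are among the 19 that rose in WT and in Klrk1-/- mice.

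Not every target on the list rose. Gstp1 (-0.87, SE 0.22, limma adjusted p = 0.0112) and Gsta3 (-0.71, SE 0.20, limma adjusted p = 0.0157) fell in WT mice. Among the Klrk1-/- mice G6pdx (-1.61, SE 0.20, limma adjusted p = 0.00016) and Pgd (-0.82, SE 0.09, limma adjusted p = 4.71e-05), both enzymes of the pentose phosphate pathway that makes NADPH, fell. Pgd also fell in WT mice (-0.33, SE 0.11, limma adjusted p = 0.0304), where G6pdx differed by -0.28 (SE 0.27, limma adjusted p = 0.453). Between the genotypes on SSD 1 target was higher and 1 was lower in Klrk1-/- mice, against 1.22% and 1.68% of all genes. Without WT SSD replicate 1 there were 3 and 1, against 2.24% and 3.26%. Osgin1 stood at 17561 ± 4792 (n = 3) against 9603 ± 1927 (n = 5) in WT mice (log2 fold change 0.86, SE 0.19, limma adjusted p = 0.0398). Hmox1, for the heme oxygenase that is also made by macrophages, stood at 520 ± 11.4 against 1106 ± 445 (log2 fold change -1.01, SE 0.23, limma adjusted p = 0.0461). Both differed the same way on NCD, Osgin1 by 0.78 and Hmox1 by -0.42 (limma adjusted p = 0.0121 and 0.041), where 3 targets were higher and 1 was lower, against 6.41% and 6.66% of all genes. Without Klrk1-/- NCD replicate 3 there were 2 and 0 by limma, against 2.74% and 2.84%.

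**Figure D4:**
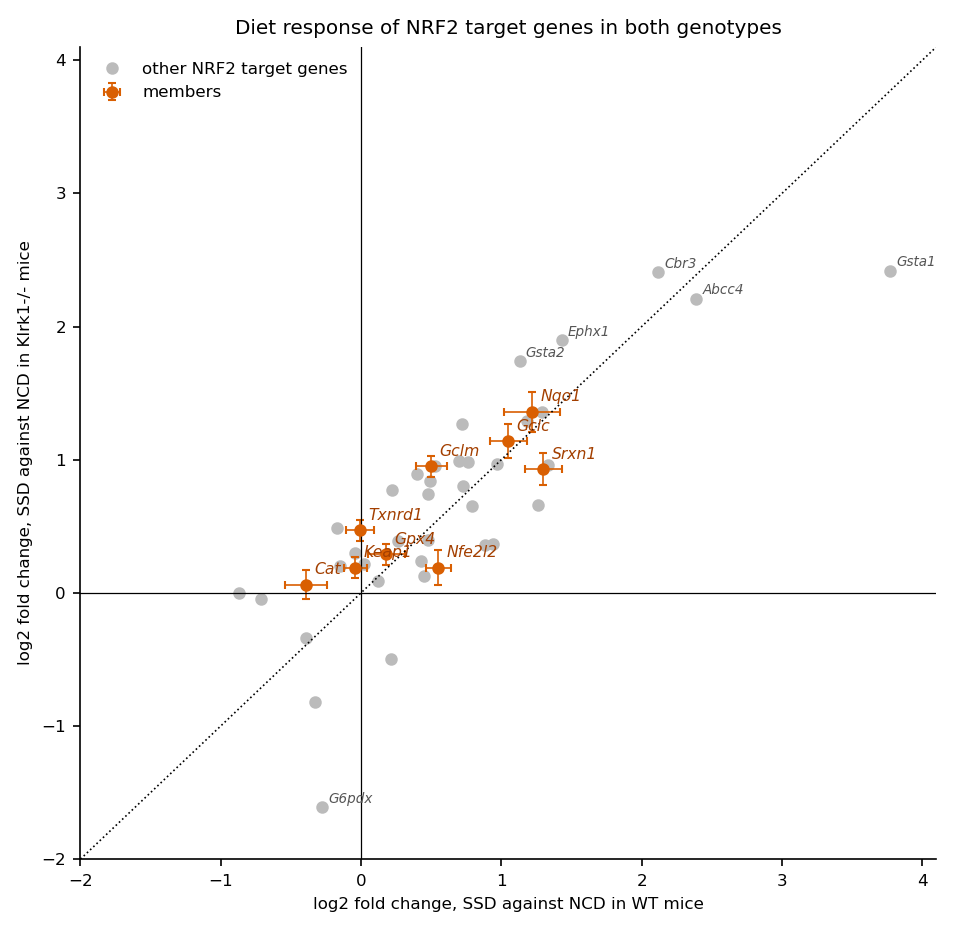
Log2 fold change of SSD against NCD in WT mice (horizontal axis) and in Klrk1-/- mice (vertical axis) for the 37 other NRF2 target genes (grey) and the 9 members other than Slc7a11 (orange, bars for the SE), with a dotted line where both are equal. Nqo1, Gclc and Srxn1 lie near 1 on both axes, Txnrd1 lies at -0.01 and 0.47, and Gsta1 has the highest WT value of 3.77.

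Of 13 tested regulators of NRF2, such as its DNA-binding partners, 6 rose and 1 fell in WT mice on SSD, against 17.3% and 17.6% of all genes, and 4 rose in Klrk1-/- mice, against 13.4%. Without WT SSD replicate 1 the WT counts were 4 and 0, against 16.9% and 17.4%. With every mouse scaled to the same total, 9 rose in WT and 8 in Klrk1-/- mice, against 48.2% and 37.4% of all genes. Maff, for a small MAF protein that pairs with NRF2 on DNA, rose from 35.4 ± 7.14 (SD, n = 4) to 200 ± 53.2 (n = 5) normalized counts in WT mice (log2 fold change 2.44, SE 0.21, limma adjusted p = 7.38e-06) and by 1.57 in Klrk1-/- mice (SE 0.21, limma adjusted p = 0.00024). Sqstm1, for the autophagy adaptor p62 that binds KEAP1, rose in both genotypes, by 0.52 in WT (SE 0.10, limma adjusted p = 0.00175) and by 0.60 in Klrk1-/- mice (SE 0.08, limma adjusted p = 0.000181).

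Around the glutathione members, 26 further genes of glutathione synthesis, use and recycling were tested in WT mice, of which 5 rose and 8 fell on SSD. Of 27 tested in Klrk1-/- mice, 5 rose and 4 fell. For these and the lists that follow, the shares of all genes that rose and fell with the diet were 17.3% and 17.6% in WT and 13.4% and 16% in Klrk1-/- mice. With every mouse scaled to the same total these shares were 48.2% and 5.5% in WT and 37.4% and 6.25% in Klrk1-/- mice, so counts under that scaling carry the shift of all genes. Under it, 8 of the glutathione genes rose and 2 fell in WT mice, with a median of 0.20 beside 0.34 for all genes, and 9 rose and 1 fell in Klrk1-/- mice, with a median of 0.22 beside 0.25. Chac1, for an enzyme that degrades glutathione, rose by 2.72 in WT mice (SE 0.29, limma adjusted p = 3.46e-05) and was lower by 1.53 in Klrk1-/- than in WT mice on SSD (log2 fold change -1.53, SE 0.19, limma adjusted p = 0.00547). Gss, for the enzyme that completes glutathione after Gclc and Gclm, rose in both genotypes, by 0.81 in WT (SE 0.12, limma adjusted p = 0.000328) and by 1.04 in Klrk1-/- mice (SE 0.10, limma adjusted p = 1.56e-05). Cth, which makes cysteine from cystathionine, fell in both genotypes, by -1.41 (SE 0.12, limma adjusted p = 5.16e-06) in WT and by -0.78 (SE 0.18, limma adjusted p = 0.0071) in Klrk1-/- mice.

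Of the 16 genes named as ATF4 targets, a stress pathway that also drives Slc7a11, 17 entries were tested since Ddit3 has 2 entries in the table. In WT mice 11 rose and 3 fell on SSD, with a median of 2.25, and in Klrk1-/- mice 9 rose and 1 fell, with a median of 0.84. With every mouse scaled to the same total the counts were 12 and 1 in WT and 11 and 1 in Klrk1-/- mice. Between the genotypes on SSD 3 were lower in Klrk1-/- mice and 0 were higher, against 1.68% and 1.22% of all genes, and 5 were lower and 1 was higher without WT SSD replicate 1, where 2.24% of all genes were higher and 3.26% were lower. Atf3 (-2.82, SE 0.35, limma adjusted p = 0.00497) and Phgdh (-1.55, SE 0.29, limma adjusted p = 0.0256) led these. Atf3 also passed the interaction (-2.35, SE 0.43, limma adjusted p = 0.0166).

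Among 18 thioredoxins, peroxiredoxins and partners of Srxn1, 2 rose and 7 fell in WT mice on SSD, and 3 rose and 5 fell in Klrk1-/- mice. Scaled to the same total these counts were 6 and 2, and 7 and 1. Txnip, for the inhibitor of thioredoxin, rose by 1.41 (SE 0.13, limma adjusted p = 1.59e-05), and Prdx5, for a peroxiredoxin, fell by 0.77 (log2 fold change -0.77, SE 0.11, limma adjusted p = 0.000264) in WT mice. Both passed in Klrk1-/- mice too, at 0.93 and -0.55. Of 17 genes that make selenoproteins or encode selenoproteins other than Txnrd1 and Gpx4, 1 rose and 9 fell in WT mice, and 1 rose and 7 fell in Klrk1-/- mice, with 7 that fell in both. Without Klrk1-/- NCD replicate 3, 0 rose and 8 fell in Klrk1-/- mice, against 13.3% and 15.1% of all genes. Scaled to the same total, 3 rose and 2 fell in WT and 3 rose and 3 fell in Klrk1-/- mice. Selenow fell by 0.88 (log2 fold change -0.88, SE 0.10, limma adjusted p = 7.31e-05) in WT mice and by 1.02 (log2 fold change -1.02) in Klrk1-/- mice. Between the genotypes on SSD 2 of the 17 were higher in Klrk1-/- mice and 0 were lower, against 1.22% and 1.68% of all genes. Scaled to the same total, 1 was higher, against 0.671%. The 2 were Sephs2, for the enzyme that activates selenium (0.47, SE 0.08, limma adjusted p = 0.0187), and Selenoo (0.46, SE 0.10, limma adjusted p = 0.0414).

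Beside Cat, 8 peroxisomal oxidases that release hydrogen peroxide were tested, of which 4 fell in WT mice, and 2 fell and 1 rose in Klrk1-/- mice. Without Klrk1-/- NCD replicate 3, 2 fell and 0 rose in Klrk1-/- mice, against 15.1% and 13.3% of all genes. Scaled to the same total, 3 fell and 1 rose in WT mice and 2 rose in Klrk1-/- mice. Paox, for polyamine oxidase, stood at 798 ± 31 normalized counts (SD, n = 4) in WT and 84.1 ± 8.68 (n = 4) in Klrk1-/- mice on NCD (log2 fold change -3.24, SE 0.11, limma adjusted p = 2.82e-09). With the diet Paox fell in WT mice to 230 ± 23.8 (n = 5; -1.79, SE 0.10, limma adjusted p = 1.61e-07) and stood at 71.4 ± 9.07 (n = 3) in Klrk1-/- mice, and its interaction passed (1.56, SE 0.16, limma adjusted p = 0.00025). Of 16 peroxisome biogenesis genes, 1 rose and 6 fell in WT mice and 3 rose and 4 fell in Klrk1-/- mice, against 7 and 1 and 8 and 1 when scaled to the same total. Of 15 ferroptosis genes beside Gpx4 and Slc7a11, 4 rose in each genotype, and 5 fell in WT and 4 in Klrk1-/- mice, led by Dhcr7 of cholesterol synthesis (-3.34, SE 0.13, limma adjusted p = 1.09e-08, in WT mice, and -4.71 in Klrk1-/- mice). Scaled to the same total, 5 of these rose and 3 fell in WT and 7 rose and 4 fell in Klrk1-/- mice. Between the genotypes on SSD 2 of 14 ferroptosis genes were higher and 1 was lower in Klrk1-/- mice, against 1.22% and 1.68% of all genes. Scaled to the same total, 0 were higher and 2 lower, against 0.671% and 2.87%. Dhcr7 was lower there (-1.33, SE 0.19, limma adjusted p = 0.00838) and passed the interaction (-1.37, SE 0.22, limma adjusted p = 0.00963). Of 6 superoxide dismutases and metal ligands, 3 rose and 1 fell in WT mice and 2 rose in Klrk1-/- mice, against 4 and 1 in WT and 4 risen in Klrk1-/- mice when scaled to the same total. Of 7 genes of the phagocyte NADPH oxidase and its relatives, 5 rose in WT mice and 1, Nox4 (0.73, SE 0.10, limma adjusted p = 0.000355), in Klrk1-/- mice, or 7 and 5 when scaled to the same total. Beside these, the summed macrophage markers of WT mice were 4605 to 4870 on NCD and 6621 to 13966 on SSD, with 5 of 8 markers higher. Those of Klrk1-/- mice were 3972 to 4827 on NCD and 4873 to 6252 on SSD, with 2 of 8 higher. The sums did not overlap between the diets in either genotype, and their part in these counts was not tested.

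The genes whose log2 values followed each member most closely over the 16 mice were, by Pearson's r, given as a description only since the diets form separate groups of mice, Dusp6 for Nfe2l2 (0.910), Nxt1 for Keap1 (0.922), Ralgps2 for Nqo1 (0.943), Acadl for Gclc (0.973), Creg1 for Gclm (0.970), Setd3 for Txnrd1 (0.845), Cd63 for Srxn1 (0.985), Ccdc90b for Gpx4 (0.903) and Tuba4a for Cat (0.941). The next for Txnrd1 were Gch1 (0.836) and Lcmt2 (0.835). Gch1 was also higher in Klrk1-/- than in WT mice on SSD (0.55, SE 0.11, limma adjusted p = 0.0313), a shared difference that enters its correlation over all mice. The genotype comparison is not given here for Setd3 and Lcmt2.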

How the data were processed

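The authors prepared libraries from whole-liver RNA (with an mRNA kit per the labels and a total RNA kit per the methods of the paper), sequenced single reads of 100 bases, and used STAR on GRCm39 and FeatureCounts on GENCODE annotation M26. Tool versions are not given in the sources used here. The signal per gene and mouse that the authors deposited is a normalized count, the reads divided by 1 factor per mouse, and how the factors were made is not stated. In each mouse 100% of the values were whole multiples of 1 step (within 0.01 of a read), which gave back the reads. The deposited gene width, an other measure the authors took from their annotation, served only for levels per kilobase. Per-sample columns left out numbered 0.

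Groups came from the labels, which give no batch or date. No 2 mice of a group agreed within sampling noise (25 pairs, chi-square per gene 13.5 to 95.59). The main test was limma 3.58.1 (trend, R 4.3.3) on log2(normalized count + 1) for genes with a mean of at least 10, with the groups compared in each model, all 16 mice for the interaction, and Benjamini-Hochberg adjustment over all genes tested. Because of the added 1, fold changes of low genes come out too small. Each member also had an exact two-sided permutation test. The members and gene lists were chosen with earlier results of these data known. Named genes are all members, Klrk1, at most the 2 largest rises and falls of each list and comparison at an adjusted p under 0.05, and the genes most correlated with each member. Motifs were searched in GRCm39 with GENCODE vM39, and TGACNNNGC also in the RefSeq promoter windows. The plan named only the latter search, so the window of 1000 bases was not part of it.

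Alternatives were other pseudocounts, minimum means, variance models and scalings, edgeR 4.0.16 and DESeq2 1.42.0 on the recovered reads, a replicate block, all groups in 1 model, fold limits of 1.5 and 2, and each mouse left out. Leaving out both mice that stand apart in the interaction, the motif TGAGNNNGC and the list counts without these mice were chosen after seeing the data. The scripts were tested on simulated data.

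All members but Nqo1 overlap another annotated gene, mostly a noncoding RNA on the opposite strand, Txnrd1 overlaps Eid3 on the same strand, and Gpx4 has 2 pseudogenes. The counting is not stated to use strand, so reads of overlapping genes could not be told apart.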

Additional observations from a re-analysis of the deposited data

Results flagged for a closer look

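In 28 groups of 4 or 5 mice with any reads of a member, 6 held a mouse farther from the others than Dixon's limit, and chance alone flags about 1 in 20 such groups. In Klrk1-/- mice on NCD, replicate 3 was the highest for Nfe2l2 (2242 normalized counts) and the lowest for Nqo1 (94.5) and Txnrd1 (2209), and replicate 4 was the highest for Gclm (4201). WT NCD replicate 1 was the highest of its group for Gclm (5092). WT SSD replicate 1 was the highest of its group for Slc7a11 (72.4). The calls for Nqo1, Gclm and Txnrd1 between the diets in Klrk1-/- mice, and for Gclm in WT mice, held without each of these mice, and that for Nfe2l2 in Klrk1-/- mice was gained without replicate 3. For none of the members did the difference of the diet effect between the genotypes pass in limma.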

How the results depend on the processing

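Over 989 alternative values of single members, 960 stayed on their side of the threshold, and 15 gained and 12 lost the call. The sign changed in 20 of the 989, called or not. The other 2 gained a call with the sign opposite to a main value that was not called. These were Keap1 (0.31) and Txnrd1 (0.34), higher on SSD in WT mice with every mouse scaled to the same total. That scaling moved the median of all genes by 0.342 for the diet in WT mice, 0.253 for the diet in Klrk1-/- mice and -0.115 for the genotype on SSD. Relative to that median Keap1 differed by -0.04 and Txnrd1 by less than 0.01. Such relative values return the main values by construction and are no separate check. For the diet in WT mice the count of members that were higher went from 5 to 8 with the same total, to 6 with no minimum mean (Slc7a11) or quantile normalization (Gpx4) and to 3 with a fold limit of 1.5 or 2. The count that were lower went from 0 to 1, Cat, with a minimum mean of 50, no variance trend, robust variances, edgeR, DESeq2 or all 4 groups in 1 model. For the diet in Klrk1-/- mice the higher count went from 6 to 9 with the same total, to 5 with all 4 groups in 1 model, to 4 with a fold limit of 1.5 and to 2 with a fold limit of 2. For the genotype on SSD it went from 1 to 0 without a variance trend, with the same total, with quantile normalization and with a fold limit of 1.5 or 2, and to 2 with DESeq2 (Gclm and Txnrd1), which called 535 of all genes higher where limma called 160. For the interaction it went from 0 to 1, Txnrd1, with DESeq2, which called 186 of all genes in that direction where limma called 42, and stayed at 0 without WT SSD replicate 1 and Klrk1-/- NCD replicate 3. The causes were not tested.

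Leaving out 1 mouse gave 5 to 6 members higher for the diet in WT mice, 5 to 7 for the diet in Klrk1-/- mice and 0 to 2 for the genotype on SSD, where the call of Txnrd1 was lost without WT SSD replicate 2, 3 or 4 or any Klrk1-/- mouse and Nqo1 was gained without WT SSD replicate 1. The sixth in WT mice was Slc7a11, which reached the minimum mean only through WT SSD replicate 1 and is not read as a gained member, and the other 5 were called each time. The genotype on NCD gave 0 throughout. With the replicate block, over mice whose number occurs in each group, the counts were 5, 6, 0 and 0 for the diet in WT, the diet in Klrk1-/-, the genotype on SSD and the genotype on NCD, so the Txnrd1 call was lost (adjusted p = 0.0508). Same-numbered mice are different animals whose deviations correlated between -0.13 and 0.25, so the numbers name the mice and do not pair them. Depth limits Slc7a11, with 3 reads or fewer in all but 3 mice.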

Other observations

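Marker lists of other cells were read beside the members, where 17.3% of all genes were higher and 17.6% lower with the diet in WT mice and 13.4% and 16% in Klrk1-/- mice. Macrophages had 5 of 8 markers higher in WT mice on SSD and 2 of 8 in Klrk1-/- mice. Sinusoidal endothelium had 4 of 5 markers higher in WT mice on SSD and 1 of 5 in Klrk1-/- mice, and stellate cells had 3 of 6 higher in each genotype. Monocytes had 2 of 5 higher in WT and 0 of 5 in Klrk1-/- mice. Neutrophil markers (3 tested of 6, with 1 gene at 0 reads in every mouse), B cell markers (4) and T and NK cell markers gave at most 1 call for the diet. Cholangiocyte markers gave 1 of 5 higher, in Klrk1-/- mice, and red blood cell markers gave 1 of 4 lower in each genotype. The part of these cells in the members' values was not tested.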
